A study of Mus musculus with 20 samples.

Results

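Transcripts of 9 junction and keratin genes were followed in the livers of 20 mice: the desmosomal cadherins Dsg1c, Dsg2 and Dsc2, the plaque genes Dsp, Pkp2 and Jup, the keratins Krt8 and Krt18, and Cdh1, which encodes E-cadherin. The 9 genes were taken by symbol from the 21780 genes of the raw count table, and all 9 were among the 15522 genes tested. They were chosen on the Dsg1c counts, which were higher in the combined exposure than in HFD control, with the other 8 taken as junction and keratin genes around it. Their values in that comparison, and in the other comparisons that use the combined libraries, are therefore given as a description with no test.

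All mice were male C57Bl/6J, ate a high-fat diet (HFD, 42% of kCal from fat) for 12 weeks, and received a single gavage after 2 weeks of that diet, at 10 weeks of age. HFD control mice (5) received corn oil alone. HFD + Aroclor mice (5) received Aroclor 1260, a commercial PCB mixture that is mostly non-dioxin-like, at 20 mg/kg. HFD + PCB 126 mice (5) received PCB 126, a dioxin-like congener, at 20 µg/kg, and HFD + Aroclor + PCB 126 mice (5) received both at these doses. The methods give 10 weeks between gavage and tissue collection, while the labels give 12 weeks of treatment. No group was kept on a control diet, so diet is shared by every group. Total counts per library ranged from 21836506 to 36854887. CPM denotes counts scaled to library size after TMM normalization, and log2FC the edgeR estimate of the log2 fold change.

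Desmosomes are adhesive contacts that tie the keratin filaments of neighbouring epithelial cells together. Desmogleins (Dsg) and desmocollins (Dsc) cross the membrane and bind the cadherins of the next cell. Plakoglobin (Jup) and plakophilins (Pkp) bind their tails, and desmoplakin (Dsp) links this plaque to keratin. In hepatocytes the keratin filaments are built from Krt8 and Krt18, which pair with each other, whereas bile duct cells also make Krt7 and Krt19. E-cadherin forms adherens junctions, and plakoglobin is shared by both kinds of junction.

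The promoters of Krt8 and Krt18 are shown because these partner genes, transcribed away from each other within one locus, had the highest levels of the 9 and were lower together in the combined exposure. Each window holds the 250 bases before the start and 50 bases after it (RefSeq, GRCm38.p6), at chr15:102004293-102004592 on the minus strand for Krt8 and chr15:102027966-102028265 on the plus strand for Krt18. Capitals mark GCGTG, the core letters of a dioxin response element, and TATAAA, both searched on both strands.
Krt8: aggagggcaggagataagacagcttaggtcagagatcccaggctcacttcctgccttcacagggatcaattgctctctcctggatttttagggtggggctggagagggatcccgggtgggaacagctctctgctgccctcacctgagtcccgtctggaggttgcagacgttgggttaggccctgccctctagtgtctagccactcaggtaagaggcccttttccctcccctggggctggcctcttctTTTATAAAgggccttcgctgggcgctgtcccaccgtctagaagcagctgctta
Krt18: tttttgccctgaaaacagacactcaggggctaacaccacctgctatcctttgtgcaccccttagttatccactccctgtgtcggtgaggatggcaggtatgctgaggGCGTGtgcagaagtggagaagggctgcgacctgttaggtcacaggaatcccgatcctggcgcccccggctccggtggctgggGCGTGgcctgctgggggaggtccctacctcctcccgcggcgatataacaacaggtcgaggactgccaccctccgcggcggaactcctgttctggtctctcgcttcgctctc
The Krt18 window held GCGTG at 143 and at 61 bases before the start, whereas the Krt8 window held no GCGTG. The Krt8 window instead held TATAAA on both strands in overlapping positions, at 3 bases and at 1 base before the start. The GENCODE starts of Krt8, at 102004482, and of Krt18, at 102028180, lie inside their windows and upstream of the RefSeq starts, so the annotations differ. The positions given here count from the RefSeq starts. GCGTG was found in 32.4% and TATAAA in 13.6% of the 32851 mouse promoter windows. Of the 9 genes, 4 had a promoter in the table, and the Dsp window held GCGTG at 58 bases before the start while the Jup window held none. A match of letters is a description of the window and says nothing of binding in these livers.

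The desmosomal cadherin genes are neighbours on chromosome 18 (GRCm38): Dsc2 (ENSMUSG00000024331, from 20030633 to 20059554, minus strand), Dsg1c (ENSMUSG00000034774, from 20247340 to 20285031, plus strand) and Dsg2 (ENSMUSG00000044393, from 20558074 to 20604521, plus strand). The keratin pair lies on chromosome 15, with Krt8 (ENSMUSG00000049382) from 101996698 to 102004482 on the minus strand and Krt18 (ENSMUSG00000023043) from 102028180 to 102032027 on the plus strand. Dsp (ENSMUSG00000054889) lies on chromosome 13 from 38151294 to 38198577. Pkp2 (ENSMUSG00000041957) lies on chromosome 16 from 16213318 to 16272712. Jup (ENSMUSG00000001552) lies on chromosome 11 from 100368958 to 100397763 on the minus strand. Cdh1 (ENSMUSG00000000303) lies on chromosome 8 from 106603351 to 106670246. None of the 9 spans overlaps another gene of the table. GC content was taken over all annotated transcripts of a gene together. It runs from 42.6% for Dsc2, 43.2% for Dsg1c and 46.2% for Dsg2 to 56.4% for Krt18 and 57.1% for Krt8 and Jup. The median over the tested genes was 50.2%.

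Per exon length, the keratins stood far above the junction genes in HFD control. FPKM (CPM per kilobase of exon) was 201 ± 35.5 (SD, n = 5) for Krt18 and 88.1 ± 22.6 for Krt8, and the mice of these 2 genes did not overlap. Dsg2 (9.94 ± 0.900 FPKM), Dsc2 (8.17 ± 1.50 FPKM) and Pkp2 (7.61 ± 0.774 FPKM) followed and overlapped from each to the next. Jup (4.37 ± 1.08 FPKM), Dsp (3.63 ± 0.770 FPKM), Cdh1 (3.12 ± 2.02 FPKM) and Dsg1c (1.45 ± 0.519 FPKM) came last, again with overlapping neighbours. Dsg1c was the lowest of the 9 in HFD control and HFD + Aroclor, the eighth in HFD + PCB 126 and the sixth in HFD + Aroclor + PCB 126.

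**Figure D1:**
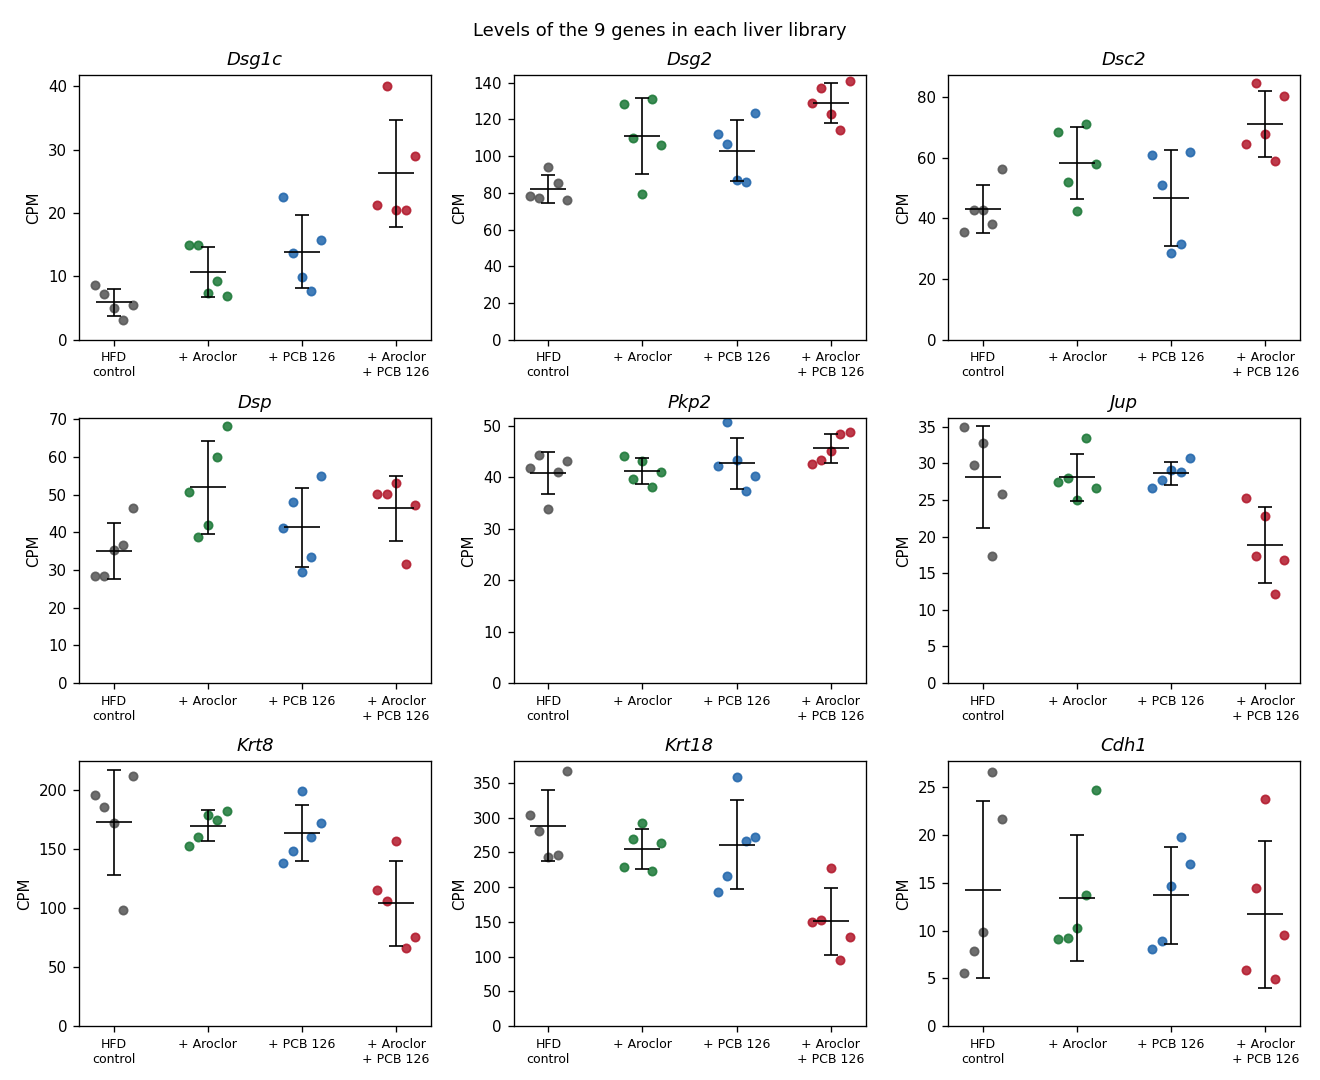
CPM of each of the 9 genes by exposure group, with 1 point per mouse (5 per group), the mean as a bar and the SD as whiskers. The combined exposure lies above HFD control in every mouse for Dsg1c, Dsg2 and Dsc2 and below it in every mouse for Krt18, while Pkp2 and Cdh1 overlap throughout.

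Dsg1c, a desmoglein, differed most. It was measured at 8.67, 7.22, 5.07, 3.11 and 5.50 CPM in the HFD control mice. The HFD + Aroclor mice gave 15.0, 15.0, 7.37, 9.29 and 6.95 CPM, and the HFD + PCB 126 mice 22.6, 13.7, 9.93, 7.64 and 15.8 CPM. The HFD + Aroclor + PCB 126 mice gave 21.3, 40.0, 20.6, 20.5 and 29.1 CPM. Every mouse of the combined exposure was above every HFD control and every HFD + Aroclor mouse, whereas 1 HFD + PCB 126 mouse, at 22.6 CPM, lay within the range of the combined exposure. These CPM rest on 71 to 332 counts in HFD control libraries and 484 to 939 in those of the combined exposure.

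The log2FC of Dsg1c with the combined exposure was 2.14 (standard error 0.314), a 4.40-fold higher fitted level than HFD control, and 1.69 (standard error 0.305) after the GC correction described with the GC content of the genes. Against the single exposures, the log2FC of the combined exposure was 1.29 (standard error 0.303) relative to HFD + Aroclor and 0.91 (standard error 0.300) relative to HFD + PCB 126. After GC correction these were lower, at 1.07 (standard error 0.296) and 0.62 (standard error 0.293). These values share the libraries that led to the choice of Dsg1c.

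The single exposures were tested, although they share the HFD control libraries with that choice. With PCB 126 the log2FC of Dsg1c was 1.22 (standard error 0.309, edgeR adjusted p = 0.0861), with 5 of 5 mice above the HFD control mean. With Aroclor it was 0.84 (standard error 0.308, edgeR adjusted p = 0.215), also with 5 of 5 mice above that mean. Neither passed the threshold of 0.05 in this test, and the DESeq2 adjusted p with PCB 126 was 0.00694. The 2 single exposures, which were given at different doses, did not separate (log2FC of PCB 126 relative to Aroclor 0.38, standard error 0.301, edgeR adjusted p = 0.735).

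The epidermal relatives of Dsg1c were nearly absent. Over all 20 libraries together, Dsg3 and Dsc3 had 0 counts, Dsg1a 3, Dsg1b 11, Dsg4 2 and Dsc1 6. Dsg1a and Dsg1b are close copies of Dsg1c, and how reads shared by such copies were counted is not given in the sources used here, so the Dsg1c level may be short of such reads. Keratinocyte markers were checked because these cells make the epidermal desmogleins. The defining keratins Krt5, Krt14, Krt1 and Krt15 had 0, 5, 2 and 1 counts in total, and Krtdap had 0. The summed level of the 12 keratinocyte markers was 123 to 166 CPM in HFD control mice, 153 to 179 CPM with Aroclor, 139 to 186 CPM with PCB 126 and 173 to 193 CPM with both. Nearly all of that sum was Perp, a desmosomal membrane protein that was abundant in every liver (142 ± 15.4 CPM in HFD control). Of the 5 keratinocyte markers tested with the combined exposure, Perp was higher and Sfn lower (log2FC −1.23).

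Dsg2, the desmoglein of simple epithelia, was the main desmoglein at every exposure. Its level was 78.2, 77.3, 93.8, 85.3 and 76.2 CPM in HFD control and 129, 137, 123, 114 and 141 CPM in the combined exposure, with no overlap. The HFD + Aroclor mice (128, 110, 79.4, 131 and 106 CPM) and the HFD + PCB 126 mice (112, 107, 86.9, 85.8 and 124 CPM) each overlapped HFD control. The log2FC of Dsg2 was 0.65 (standard error 0.127) with the combined exposure, and 0.37 (standard error 0.112) after GC correction. Aroclor gave 0.43 (standard error 0.127, edgeR adjusted p = 0.195) and PCB 126 gave 0.33 (standard error 0.127, edgeR adjusted p = 0.252), and neither passed.

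Dsg1c took a larger share of the 2 desmogleins in the combined exposure. It made up 12.7 ± 4.58% (SD, n = 5) of the summed Dsg1c and Dsg2 FPKM in HFD control mice, 16.2 ± 4.24% with Aroclor, 20.8 ± 5.02% with PCB 126 and 28.7 ± 5.00% in the combined exposure. The share ran from 6.88% to 18.3% in HFD control mice and from 25.0% to 37.1% in mice of the combined exposure. HFD + PCB 126 mice ran from 15.2% to 28.9% and overlapped both. Since the share includes the gene the set was chosen around, it has no test.

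**Figure D2:**
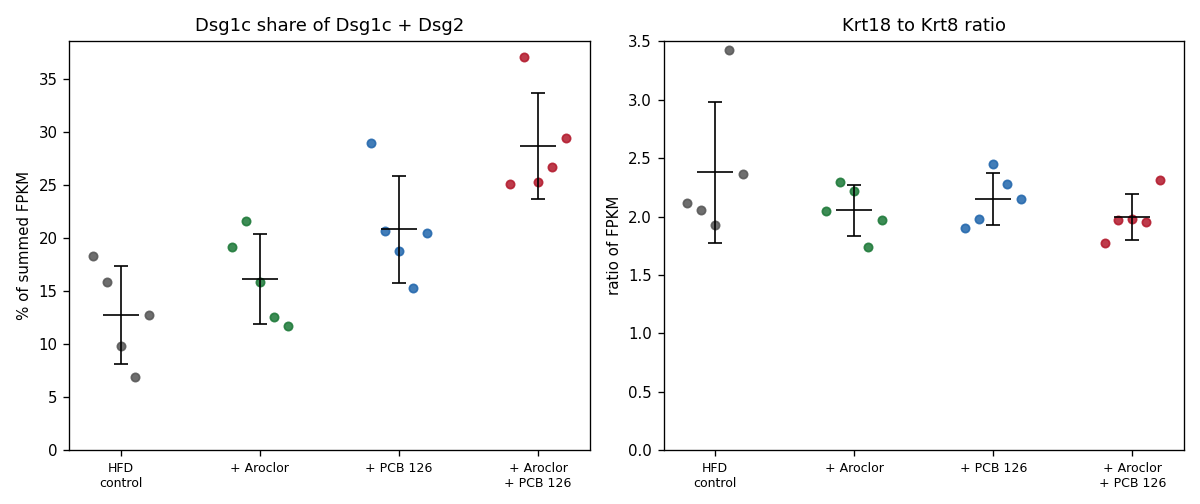
Share of Dsg1c in the summed FPKM of Dsg1c and Dsg2 (left) and ratio of Krt18 to Krt8 FPKM (right) by group, with 1 point per mouse (5 per group), the mean as a bar and the SD as whiskers. The desmoglein share in the combined exposure starts at 25.0%, above the 18.3% that HFD control reaches, while the keratin ratio overlaps in all 4 groups.

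Dsc2, the desmocollin partner of Dsg2, was the only desmocollin with more than a few counts. Its mice ran from 35.5 to 56.2 CPM (median 42.6) in HFD control and from 58.8 to 84.5 CPM (median 68.0) in the combined exposure, without overlap. HFD + Aroclor mice (42.4 to 71.0 CPM) and HFD + PCB 126 mice (28.7 to 61.9 CPM) overlapped HFD control. The log2FC of Dsc2 was 0.72 (standard error 0.200) with the combined exposure and 0.29 (standard error 0.161) after GC correction. It was 0.44 with Aroclor (standard error 0.199, edgeR adjusted p = 0.273) and 0.12 with PCB 126 (standard error 0.199, edgeR adjusted p = 0.823).

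The plaque genes had no common direction. Desmoplakin (Dsp) was highest in HFD + Aroclor (38.9 to 68.4 CPM), against 28.4 to 46.4 CPM in HFD control, 29.4 to 55.0 CPM in HFD + PCB 126 and 31.5 to 53.0 CPM in the combined exposure. Aroclor gave a log2FC of 0.57 (standard error 0.191, edgeR adjusted p = 0.201), with 5 of 5 mice above the HFD control mean, and did not pass. It was 0.24 (standard error 0.191, edgeR adjusted p = 0.581) with PCB 126 and 0.41 (standard error 0.191) with the combined exposure. Pkp2, the plakophilin of simple epithelia, was the steadiest of the 9. It ran from 33.7 to 50.6 CPM over all 20 mice, and its log2FC was 0.015 with Aroclor (edgeR adjusted p = 0.942), 0.067 with PCB 126 (edgeR adjusted p = 0.777) and 0.16 (standard error 0.0906) with the combined exposure.

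Plakoglobin (Jup) was lower in the combined exposure. Its level was 34.9, 29.8, 32.7, 17.3 and 25.8 CPM in HFD control and 25.3, 17.3, 22.8, 12.2 and 16.8 CPM in the combined exposure, so the groups overlapped through 1 low HFD control mouse. Its log2FC was −0.58 (standard error 0.174), and −0.064 (standard error 0.127) after GC correction. HFD + Aroclor mice (25.0 to 33.5 CPM) and HFD + PCB 126 mice (26.7 to 30.8 CPM) lay within the HFD control range, with log2FC of −0.0014 (edgeR adjusted p = 0.997) and 0.025 (edgeR adjusted p = 0.964).

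Both keratins were lower in the combined exposure, opposite to the desmosomal cadherins. Krt8 was measured at 195, 186, 172, 98.0 and 212 CPM in HFD control and 115, 106, 156, 66.2 and 75.8 CPM in the combined exposure. Krt18 was measured at 304, 280, 243, 246 and 368 CPM in HFD control and 150, 153, 228, 95.0 and 129 CPM in the combined exposure. Every mouse of the combined exposure was below every HFD control mouse for Krt18, and for Krt8 the ranges overlapped through the HFD control mouse at 98.0 CPM. The log2FC was −0.93 (standard error 0.191) for Krt18 and −0.73 (standard error 0.201) for Krt8. After GC correction the values were −0.50 (standard error 0.136) and −0.23 (standard error 0.135).

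With single exposures both keratins overlapped HFD control. Krt18 ran from 223 to 292 CPM in HFD + Aroclor (log2FC −0.17, standard error 0.189, edgeR adjusted p = 0.633) and from 193 to 358 CPM in HFD + PCB 126 (log2FC −0.14, standard error 0.189, edgeR adjusted p = 0.773). For Krt8 the log2FC was −0.025 with Aroclor (edgeR adjusted p = 0.956) and −0.077 with PCB 126 (edgeR adjusted p = 0.894). The ratio of Krt18 to Krt8 FPKM was 2.38 ± 0.604 (SD, n = 5) in HFD control mice, 2.06 ± 0.219 with Aroclor, 2.15 ± 0.221 with PCB 126 and 2.00 ± 0.196 with both. The mouse with low Krt8 in HFD control had a ratio of 3.42, and the others of that group ran lower. The bile duct keratins were scarce, with group means of 0.556 to 0.974 CPM for Krt7 and 0.456 to 1.10 CPM for Krt19.

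Cdh1 varied more between mice than between groups. Its level ran from 5.51 to 26.6 CPM in HFD control mice, 9.08 to 24.7 CPM with Aroclor, 8.05 to 19.8 CPM with PCB 126 and 4.91 to 23.7 CPM with both. Its log2FC was −0.083 with Aroclor (standard error 0.445, edgeR adjusted p = 0.934) and −0.056 with PCB 126 (standard error 0.446, edgeR adjusted p = 0.970). With the combined exposure it was −0.28 (standard error 0.448).

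**Figure D3:**
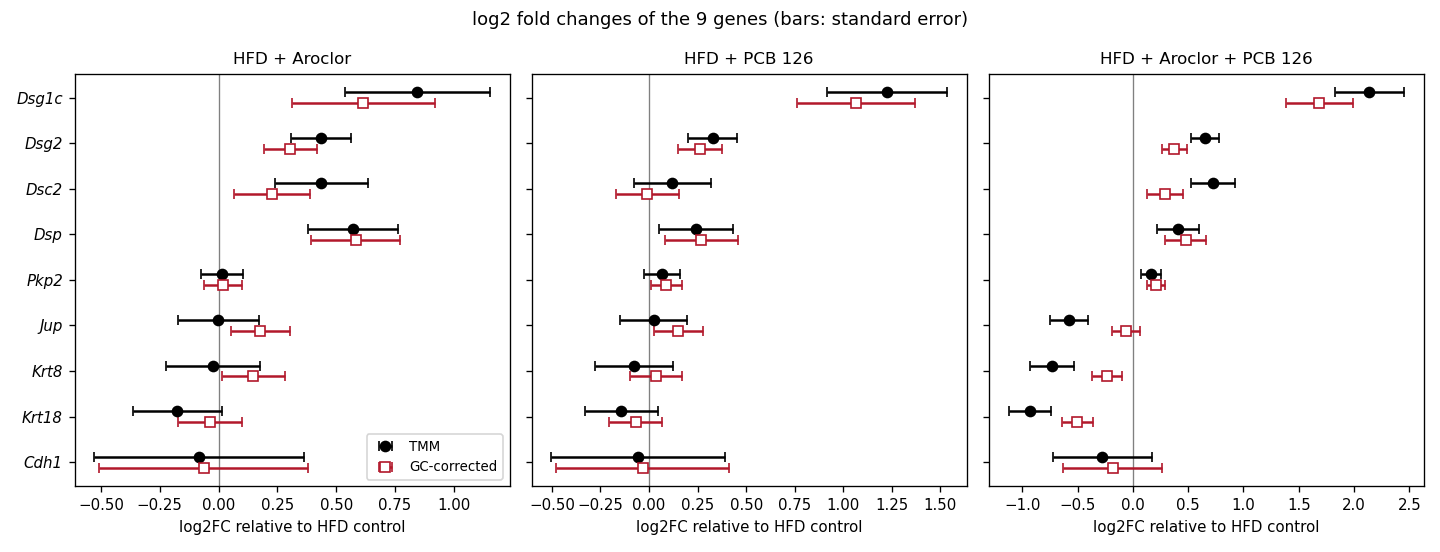
log2FC of the 9 genes relative to HFD control with Aroclor, PCB 126 or both, before (filled circles) and after (open squares) GC correction, with standard errors as bars. Dsg1c has the largest value in each panel, and Jup moves from −0.58 to −0.064 after correction in the combined exposure. Each panel has its own x axis.

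Counted over the 9 genes, 0 passed an edgeR adjusted p of 0.05 with Aroclor, where 0% of the 15522 tested genes did, and 0 passed with PCB 126, where 0.116% did. At an unadjusted p under 0.05 there were 4 of 9 with Aroclor, beside 17.2% of all genes, and 2 of 9 with PCB 126, beside 14.7%. Dsg1c was in both counts, and its HFD control libraries are those of the choice. After GC correction the counts were 2 of 9 with Aroclor, beside 2224 of the 15522 genes, and 2 of 9 with PCB 126, beside 2328. DESeq2 called 0 of 9 with Aroclor, beside 0.870% of all genes, and 1 of 9 with PCB 126, beside 2.06%. Between PCB 126 and Aroclor 0 of 9 passed by edgeR, 0 by DESeq2 and 0 at an unadjusted p under 0.05, beside 0.0258%, 0.412% and 9.08% of all genes. No calls are given for the 9 genes with the combined exposure, the contrast of the choice. In that contrast the mice did not overlap HFD control for Dsg1c, Dsg2, Dsc2 and Krt18, 4 of 9 genes, beside 18.8% of all genes. Since Dsg1c led to the choice, this count is a description and cannot show an excess among the 9. On GC-corrected levels the mice overlapped for Dsg2, Dsc2 and Krt18. With the single exposures the mice were apart from HFD control for 0 of 9, against 2.94% of all genes with Aroclor and 2.14% with PCB 126. The median log2FC of the 9 genes was 0.015 with Aroclor, 0.067 with PCB 126 and 0.16 with both, against −0.013, −0.018 and −0.0010 over all genes tested.

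The levels moved with the GC content of the genes. For each library, log2 CPM was centred gene by gene on the average of the 20 libraries and regressed on GC content, and the slope was expressed per 10 percentage points. It ran from 0.0061 to 0.50 in HFD control libraries, from −0.11 to 0.15 with Aroclor, from −0.10 to 0.41 with PCB 126 and from −0.68 to −0.13 in the combined exposure. GC correction subtracts a smooth trend over GC content from each library. Over the 9 genes, Pearson's r between GC content and the log2FC of the combined exposure was −0.89, and −0.74 after correction. Over the 48 junction genes with a mean of at least 1 CPM it was −0.85, and −0.44 after correction. These are descriptions across genes measured in the same libraries, and genes are not independent replicates.

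Within the combined exposure the 2 libraries with the lowest slopes (−0.68 and −0.52) had the lowest Krt8 (66.2 and 75.8 CPM) and Jup (12.2 and 16.8 CPM). In HFD control the library with the lowest slope (0.0061) likewise had the lowest Krt8 (98.0 CPM) and Jup (17.3 CPM). That HFD control library also had the lowest Dsg1c of the group, at 3.11 CPM.

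**Figure D4:**
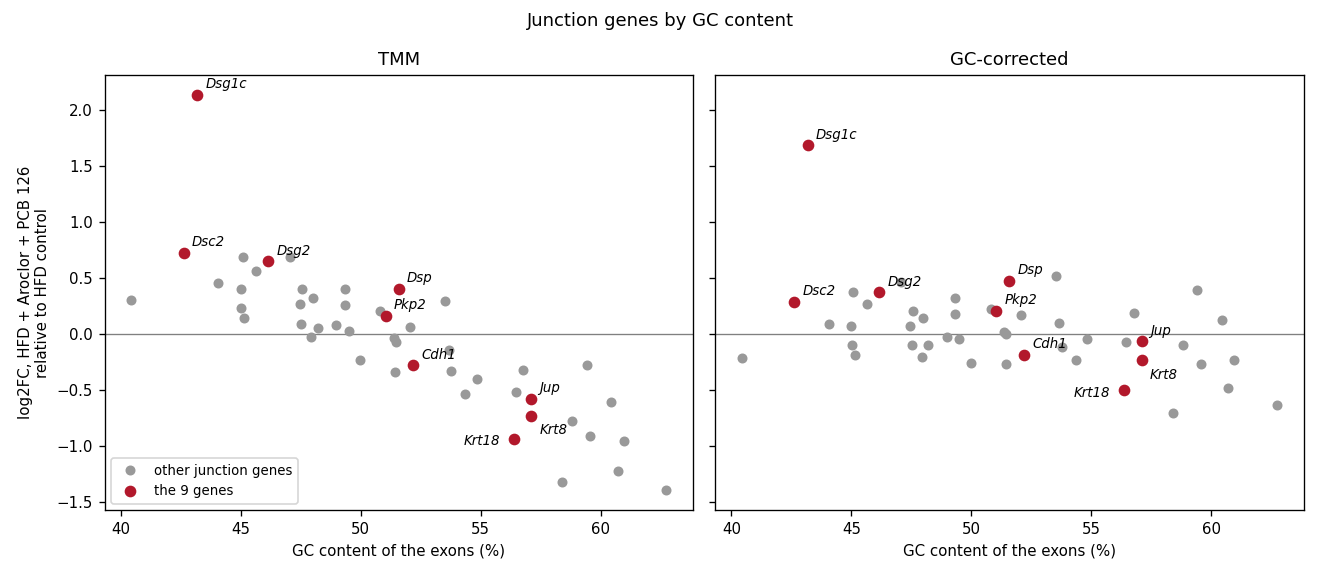
log2FC of the combined exposure relative to HFD control against the GC content of the transcripts (axis label: exons) for the 48 junction genes with a mean of at least 1 CPM, before (left) and after (right) GC correction, with the 9 genes in red. The slope across genes is shallower on the right (r from −0.85 to −0.44), and Dsg1c lies at 1.69 there.

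**Figure D5:**
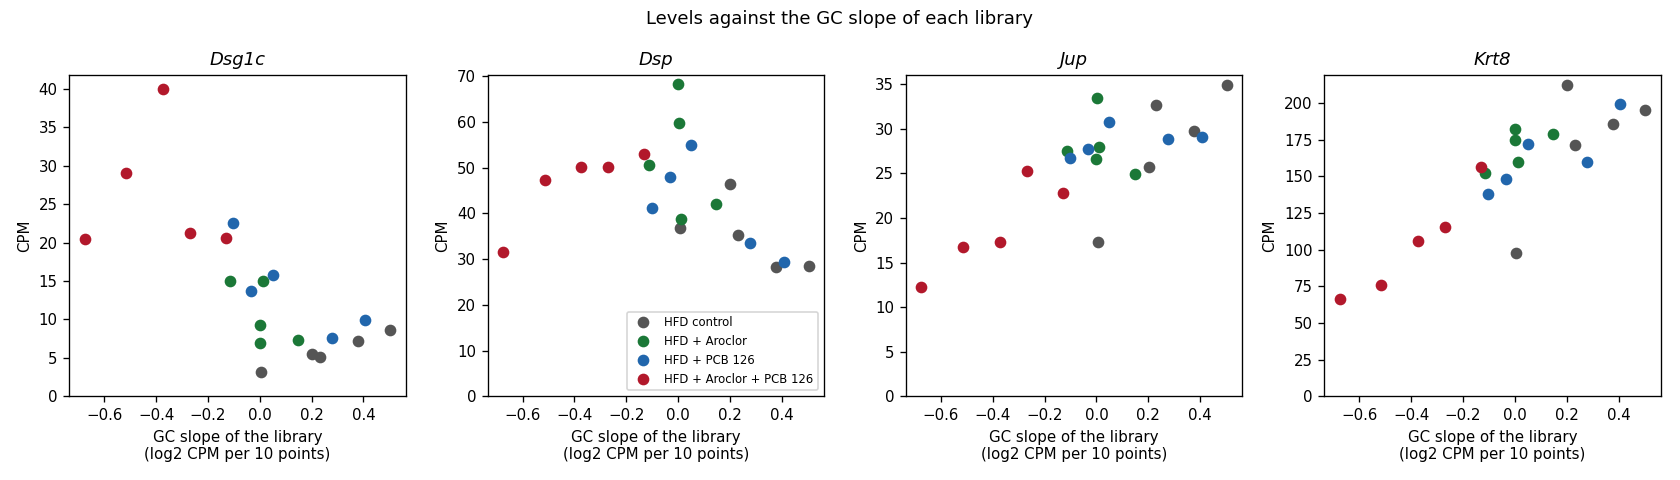
CPM of Dsg1c, Dsp, Jup and Krt8 against the GC slope of each library, with 1 point per mouse (20) coloured by group. Low Krt8 and Jup go with low slopes in the combined exposure and in 1 HFD control library at a slope of 0.0061.

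Beyond the 9 genes, the 56 other genes of the junction lists gave 50 that were tested. With Aroclor and with PCB 126, 0 of 50 passed (lowest edgeR adjusted p = 0.199 and 0.242). With the combined exposure 19 of 50 passed, 9 higher and 10 lower, beside 32.8% of all genes, 15.8% higher and 17.0% lower. Their median log2FC was −0.053, against −0.0010 over all genes. After GC correction 5 of 50 passed, beside 9.10% of all genes. Of these Cldn3, Cldn14 and Tjp3 were lower and Cgnl1 was higher (log2FC 0.52). Nectin1 was higher after correction (log2FC 0.40) and had a log2FC of −0.27 before it, so its sign turned. Cgnl1 and Nectin1 were named after their values were seen, as were Evpl, Afdn, Pkhd1, Gpm6a, Sfn and the cell type markers that were called.

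Among tight junction genes 4 were higher and 5 lower of 19 tested, and the changes of over 1 log2 unit that passed, apart from Evpl, were here. The claudin gene Cldn14 fell with the combined exposure from 5.04 ± 1.31 CPM (SD, n = 5) to 2.02 ± 0.302 CPM (log2FC −1.32, edgeR adjusted p = 0.000582), and after GC correction the log2FC was −0.71 (edgeR adjusted p = 0.0275). Cldn3, the claudin of bile canaliculi and ducts, fell from 23.7 ± 7.03 CPM to 9.01 ± 4.72 CPM (log2FC −1.40, edgeR adjusted p = 0.00279), with a GC-corrected log2FC of −0.63 (edgeR adjusted p = 0.0444). With gene length in the correction as well, Cldn3 no longer passed (log2FC −0.53, edgeR adjusted p = 0.0674). Tjp3, which encodes the scaffold ZO-3, fell from 11.6 ± 2.87 CPM to 4.95 ± 1.41 CPM (log2FC −1.23, edgeR adjusted p = 0.000582), with a GC-corrected log2FC of −0.48 (edgeR adjusted p = 0.0203). The span of Tjp3 overlaps another gene, so its counts are uncertain.

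Among adherens junction genes 3 were higher and 1 lower of 11 tested, with Afdn (log2FC 0.26, edgeR adjusted p = 0.0346) beside those that follow. Cdh2, the N-cadherin that hepatocytes make beside E-cadherin, rose from 45.9 ± 8.90 CPM to 74.2 ± 8.63 CPM (log2FC 0.69, edgeR adjusted p = 0.0117). Nectin3 rose from 49.2 ± 5.62 CPM to 64.9 ± 5.98 CPM (log2FC 0.40, edgeR adjusted p = 0.00738), whereas Nectin2, a nectin like it, fell from 67.8 ± 5.63 CPM to 36.0 ± 8.76 CPM (log2FC −0.91, edgeR adjusted p = 0.00110). None of these 3 passed after GC correction (log2FC 0.37, 0.076 and −0.27, edgeR adjusted p = 0.169, 0.643 and 0.156).

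Other plaque and filament genes split as well. Perp rose from 142 ± 15.4 CPM to 178 ± 8.22 CPM (log2FC 0.32, edgeR adjusted p = 0.0117), while the plaque gene Evpl (envoplakin), which had a mean under 1 CPM, fell (log2FC −1.16, edgeR adjusted p = 0.0412). The linker Plec (plectin), which ties keratin to other structures and overlaps another gene, fell from 38.1 ± 5.92 CPM to 19.7 ± 6.27 CPM (log2FC −0.96, edgeR adjusted p = 0.00154). Macf1, a related linker, rose from 62.6 ± 7.72 CPM to 82.9 ± 5.08 CPM (log2FC 0.41, edgeR adjusted p = 0.00686). Of the gap junction genes 2 of 6 fell, Gjb1 (connexin 32, the main hepatocyte connexin) from 470 ± 50.5 CPM to 328 ± 63.8 CPM (log2FC −0.52, edgeR adjusted p = 0.00340) and Gja4 from 4.46 ± 2.06 CPM to 2.61 ± 0.842 CPM (log2FC −0.77, edgeR adjusted p = 0.0375). After GC correction none of these 6 genes passed. Gja4 passed in 6 of the 10 fits that left out 1 mouse, and the edgeR adjusted p was 0.0576 without HFD control replicate 3, 0.158 without HFD control replicate 5, 0.0831 without HFD + Aroclor + PCB 126 replicate 3 and 0.0576 without replicate 4 of that group.

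In bulk liver, fewer cells of a type and less RNA per cell cannot be told apart. The hepatocyte list had 0 of 8 markers higher and 4 lower in the combined exposure (Apoa1, Asgr1, Serpina1c and Ttr), with summed levels of 83020 to 92080 CPM in HFD control and 74410 to 104700 CPM in the combined exposure. The cholangiocyte list had 1 of 12 higher (Pkhd1) and 0 lower, with sums of 89.8 to 101 CPM in HFD control mice, 104 to 156 CPM with Aroclor, 87.9 to 153 CPM with PCB 126 and 85.3 to 160 CPM with both. Most of that sum was Spp1, with group means of 63.8 CPM in HFD control and 80.0 CPM with both. The mesothelial list had 1 of 6 higher (Gpm6a), and its sums were 1.26 to 9.64 CPM in HFD control and 3.58 to 6.56 CPM in the combined exposure. The stellate list had 3 of 6 higher (Dcn, Lrat and Reln) and 1 lower (Des). Its sums of 267 to 326 CPM in the combined exposure did not overlap those of 130 to 249 CPM in HFD control. Most of the stellate sum was Dcn, with group means of 131 CPM in HFD control and 198 CPM in the combined exposure. Of all genes tested, 18.8% did not overlap between these groups. Of the endothelial list 1 of 6 was lower (Stab2), of the macrophage list 1 of 6 was higher (Adgre1) and of the lymphocyte list 1 of 5 was higher (Ptprc). Their sums overlapped between HFD control (97.2 to 180, 137 to 297 and 7.94 to 16.0 CPM) and the combined exposure (145 to 181, 165 to 225 and 15.0 to 19.0 CPM). The part of these cell types in the junction values was not tested. As a check on exposure, Cyp1a2, a target of the dioxin receptor, was at 249 to 517 CPM in HFD control mice, 279 to 492 CPM with Aroclor, 1120 to 2601 CPM with PCB 126 and 537 to 993 CPM with both. Cyp1a1, another such target, was at 0.219 to 0.940 CPM in HFD control mice, 0.738 to 1.23 CPM with Aroclor, 4.08 to 314 CPM with PCB 126 and 0.792 to 2.62 CPM with both. Cyp2b10, a target of the receptor CAR that non-dioxin-like PCBs act through, was at 0.351 to 6.62 CPM, 2.89 to 30.7 CPM, 0.530 to 9.99 CPM and 1.43 to 25.7 CPM in the same order, and all 4 groups overlapped. Tiparp, Cyp2c55 and Cyp3a11 overlapped between HFD control and each exposure. Cyp3a11 was nevertheless higher with both, at 3267 to 5866 CPM against 1893 to 3394 CPM in HFD control (log2FC 0.89, edgeR adjusted p = 0.00652). It was not among the genes that passed after GC correction.

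Among the 11342 genes with a mean of at least 1 CPM, Pearson's r with the log2 CPM of Dsg1c was highest for Ak4 (0.94), Nfib (0.93), Ces1d (0.93), Dhdh (0.93) and Susd1 (0.91). After GC correction r was 0.91, 0.79, 0.93, 0.78 and 0.89 for the same genes. Ces1d, a carboxylesterase, had group means of 868 CPM without PCBs, 1271 CPM with Aroclor, 1492 CPM with PCB 126 and 2100.0 CPM with both. Once each group's mean was removed, the genes most alike included Sult1c2 (0.90), Sqor (0.90), Ociad2 (0.89) and Iyd (0.88). These libraries share their group differences and GC slopes, and the values of r are descriptions.

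Among the 9 genes, deviations from the group means were most alike for Krt8 and Krt18 (r = 0.81, n = 20 libraries), Krt8 and Jup (0.78), Dsg2 and Dsc2 (0.77) and Dsc2 and Dsp (0.73). After GC correction these were 0.58, 0.48, 0.67 and 0.70, and the pair most alike was then Dsg2 and Jup (0.70, from 0.19 before). Dsg1c went with Dsc2 (0.55) and Dsg2 (0.47) and against Cdh1 (−0.49), and after GC correction the values were 0.55, 0.39 and −0.51, with Dsg1c and Jup at 0.49 (0.26 before).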

How the data were processed

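RNA of 20 snap-frozen livers was extracted with RNeasy and made into stranded polyA libraries by the authors, who sequenced them in 2 runs. The submitters' processing notes name FastQC 0.10.1, STAR 2.6, HTSeq 0.10.0 and the genome GRCm38.p6. The authors deposited raw counts per Ensembl gene, before any normalization. The strand setting and annotation release are not given in the sources used here. Columns were matched to mice by title, and the number inside the label of 1 HFD + PCB 126 library differs from its title, which was followed. Nothing in the labels names the libraries of each sequencing run, so the run could not be entered in any fit. Symbols, transcript GC content and exon lengths came from GENCODE M21.

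The 15522 genes holding 10 or more counts in total were scaled by TMM and modelled in edgeR 4.0.16 (R 4.3.3), with 1 coefficient per group over all 20 libraries (16 residual degrees of freedom), two-sided quasi-likelihood tests and Benjamini-Hochberg adjustment over all tested genes. GC correction entered a spline of each library over GC content (6 degrees of freedom) as an offset. The pipeline was tested on simulated data. The alternatives were RLE and upper-quartile scaling, DESeq2 1.42.0, other filters, only the groups compared, the replicate block, GC and length correction, and each mouse left out. The members and gene lists were chosen with earlier results of these data known. The text names the 9 members, the 5 genes most correlated with Dsg1c on each scale (log2 of CPM + 0.01; 1 of these is not reported here), and for each junction list at most the 3 called genes with the largest log2FC and a mean of at least 1 CPM. No 2 libraries of a group agreed within sampling noise (the lowest chi-square over its degrees of freedom was 18.7 in 40 pairs), and each counted as 1 mouse. p-values measure the spread between these mice, which are 1 cohort. Sequences are from RefSeq, with 4 of the 9 members in its promoter table.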

Additional observations from a re-analysis of the deposited data

Results flagged for a closer look

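Each of the 36 combinations of a gene and an exposure group was examined for a mouse that stands apart from the other 4, by its gap to the nearest mouse relative to the range of the group. Chance alone flags about 5% of such groups. One stood apart. Dsp in HFD + Aroclor + PCB 126 replicate 4 was at 31.5 CPM, while the other 4 mice of that group were between 47.3 and 53.0 CPM, a gap of 0.736 of the range against a critical value of 0.710. This library also had the lowest GC slope of all 20, at −0.68 log2 CPM per 10 percentage points, and the lowest Krt8 and Krt18. The part of the slope in the low Dsp value was not tested.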

How the results depend on the processing

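Counts of calls depended on the tool and on GC correction. Genes called with Aroclor (0 by edgeR, 2677 at an unadjusted p under 0.05) were 135 by DESeq2, and those called with PCB 126 (18) were 320 by DESeq2, 9 with upper-quartile scaling, 47 with the FPKM filter, 4 with only the groups compared, 51 with GC correction and 84 with GC and length correction. Between PCB 126 and Aroclor (4) they were 64 by DESeq2 and 2 with only the groups compared. With the combined exposure, GC correction took the genes called from 5089 to 1412 and those of the other junction genes from 19 to 5, and GC and length correction took them to 1484 and 6. No calls are given there for the 9 members, since this contrast led to their choice. DESeq2 called 1 member with PCB 126, Dsg1c.

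Replicate numbers do not pair the mice, which are different animals (correlations of deviations of same-numbered mice from −0.25 to 0.77). The replicate block gave 26 genes with Aroclor and 101 with PCB 126, where it called 1 member. GC correction with the replicate block gave 19 and 117 genes, 1 member with PCB 126, and 1448 genes and 6 other junction genes with the combined exposure. When 1 mouse was left out, the genes called ran from 0 to 2 with Aroclor, 4 to 127 with PCB 126 (4 and 127 without HFD + PCB 126 replicates 2 and 3, and 6 to 42 without replicates 4 or 5 of that group or HFD control replicates 1, 3, 4 or 5) and 1 to 15 between both (15 without HFD + PCB 126 replicate 1). The 2 genes with Aroclor came without HFD + Aroclor replicate 2. The 9 members gave 0 calls in each of these single-exposure fits.

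Signs of uncalled log2FC near 0 turned. With Aroclor, Pkp2 was −0.0055 with RLE, −0.028 with upper-quartile scaling, −0.0061 by DESeq2 and −0.0023 with no filter. Jup, Krt8 and Cdh1 were 0.037, 0.0054 and 0.0024 with the replicate block, and 0.19, 0.17 and 0.033 with GC correction and the replicate block. Jup and Krt8 were 0.18 and 0.15 with GC correction, and with length 0.13 and 0.19, with Krt18 at 0.031. With PCB 126, Jup was −0.018 with upper-quartile scaling and Cdh1 0.025 with the replicate block. Dsc2 and Krt8 were −0.0080 and 0.035 with GC correction, −0.0045 and 0.055 with length, and −0.024 and 0.050 with the replicate block as well, where Cdh1 was 0.057. Between PCB 126 and Aroclor, Jup and Krt18 were −0.027 and −0.032 with GC correction, −0.0069 and −0.073 with length, and −0.032 and −0.040 with the replicate block as well. Leaving out 1 mouse with Aroclor gave ranges of −0.046 to 0.047 for Pkp2, −0.13 to 0.089 for Jup, −0.17 to 0.060 for Krt8 and −0.45 to 0.27 for Cdh1. With PCB 126 they were −0.00070 to 0.25 for Dsc2, −0.0011 to 0.11 for Pkp2, −0.11 to 0.12 for Jup, −0.22 to 0.0077 for Krt8 and −0.27 to 0.29 for Cdh1. Between both they were −0.016 to 0.097 for Pkp2, −0.013 to 0.10 for Jup, −0.13 to 0.0021 for Krt8, −0.11 to 0.12 for Krt18 and −0.14 to 0.39 for Cdh1.

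Each of the combined exposure's untested log2FC was set against that gene's own spread between mice. Those of Dsg2, Dsc2, Jup, Krt8 and Krt18 moved by more than this spread, and those of Dsg1c, Dsp, Pkp2 and Cdh1 did not. Dsg1c did move with GC correction, from 2.14 to 1.69 relative to HFD control, within its own spread. The sign of Cdh1 nevertheless turned when 1 mouse was left out. Its log2FC then ran from −0.72 to 0.074 relative to HFD control and from −0.64 to 0.12 relative to HFD + Aroclor. Relative to HFD control, GC correction gave 0.37 for Dsg2, 0.29 for Dsc2, −0.064 for Jup, −0.23 for Krt8 and −0.50 for Krt18. With length they were 0.32, 0.29, −0.13, −0.18 and −0.40, and with the replicate block 0.37, 0.30, −0.064, −0.23 and −0.51. With length Nectin3 was −0.0077 and Gjb1 0.0080, both turned. Relative to HFD + Aroclor, Jup was −0.24, −0.26 with length and −0.25 with the replicate block, and Krt18 −0.43 with length. Relative to HFD + PCB 126, Dsg2, Jup, Krt8 and Krt18 were 0.11, −0.21, −0.27 and −0.43, with length 0.081, −0.25, −0.24 and −0.36, and with the replicate block 0.11, −0.22, −0.28 and −0.44. Dsg1c stayed between 1.69 and 2.20 relative to HFD control over these alternatives. Why GC correction moved these values was not tested.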
